A study of Mus musculus with 10 samples.

Results

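The nuclear genes that encode subunits of the mitochondrial respiratory chain and ATP synthase were followed through Achilles tendon RNA of mice in which Mkx had been deleted. The Mkx product, Mohawk, is a homeodomain factor that tendon cells use to maintain their matrix genes. Members were chosen by symbol alone: mouse protein-coding genes named Nduf (families a, b, c, s and v), Sdha to Sdhd, Uqcr, Cyc1, Cycs, Cox4 to Cox8 and Atp5. This rule took 86 of the 32285 genes in the count table, with 35 in complex I, 4 in complex II, 9 in complex III, 20 in complex IV and 17 in complex V, and Cycs standing alone as the carrier cytochrome c. Ndufa4 and its relative Ndufa4l2 were placed in complex IV, since the Ndufa4 protein is a complex IV subunit despite its name.

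In the knockout mice, 1 Mkx allele was Mkx-CreER, by its name a tamoxifen-dependent Cre recombinase driven by Mkx, and the other was floxed and so open to deletion by Cre (genotype Mkx-CreER/flox, n = 3 libraries). The controls carried the Mkx-CreER allele with a wild-type allele (Mkx-CreER/+, n = 3) or the floxed allele with a wild-type allele and no Cre (Mkx flox/+, n = 4). All 3 genotypes received tamoxifen at 20 mg/kg when 6 weeks old and were sampled 4 weeks later, so drug and age are shared by all groups. Whether the CreER insertion itself disrupts Mkx, and whether each library comes from a single mouse, is not stated in the sources used here. If libraries of a genotype share mice, p-values measure only the spread between these libraries. Libraries were made by RamDA-seq, which reverse transcribes total RNA from little material, and are named here by genotype and the number in the deposited table.

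The respiratory chain sits in the inner mitochondrial membrane. Complexes I and II pass electrons from NADH and succinate to ubiquinone, complex III passes them on to cytochrome c, and complex IV uses them to reduce oxygen. Complexes I, III and IV pump protons as they do so, and complex V, the ATP synthase, lets protons return and makes ATP. Apart from complex II, every complex also holds subunits made from mitochondrial DNA. Tendon fibroblasts are known as cells of low respiratory demand beside skeletal muscle, which is attached to the Achilles tendon and uses muscle isoforms of several complex IV subunits (Cox6a2, Cox7a1 and, in rodents, Cox8b) in place of the widely expressed Cox6a1, Cox7a2 and Cox8a.

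The upstream sequences of these complex IV isoform genes are shown because the ratios of the isoform pairs are compared below. Cox6a2 is missing from them, since no promoter window was matched to it. The windows are the 200 bases before the RefSeq start in GRCm38.p6, written 5′ to 3′ on the strand of the gene, and capitals mark matches to the motif letters given below.
Cox7a1 (chr7:30183971-30184170, plus strand): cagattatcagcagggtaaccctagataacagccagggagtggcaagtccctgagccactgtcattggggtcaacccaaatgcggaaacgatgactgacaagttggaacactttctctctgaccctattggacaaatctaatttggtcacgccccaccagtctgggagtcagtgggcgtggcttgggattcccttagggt
Cox7a2 (chr9:79759854-79760053, minus strand): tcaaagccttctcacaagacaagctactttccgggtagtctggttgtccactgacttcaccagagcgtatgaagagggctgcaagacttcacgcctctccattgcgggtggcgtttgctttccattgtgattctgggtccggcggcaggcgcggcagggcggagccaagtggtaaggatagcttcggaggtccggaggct
Cox8b (chr7:140900447-140900646, minus strand): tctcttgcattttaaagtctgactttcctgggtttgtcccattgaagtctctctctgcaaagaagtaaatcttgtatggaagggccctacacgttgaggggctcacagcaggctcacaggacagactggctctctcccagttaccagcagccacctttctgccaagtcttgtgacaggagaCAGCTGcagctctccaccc
Cox8a (chr19:7217617-7217816, minus strand): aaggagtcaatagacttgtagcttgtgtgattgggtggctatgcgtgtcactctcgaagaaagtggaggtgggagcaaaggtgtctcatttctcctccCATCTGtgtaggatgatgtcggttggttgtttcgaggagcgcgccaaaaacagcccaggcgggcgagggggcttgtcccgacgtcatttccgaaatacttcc
Cox6a1 (chr5:115348959-115349158, minus strand): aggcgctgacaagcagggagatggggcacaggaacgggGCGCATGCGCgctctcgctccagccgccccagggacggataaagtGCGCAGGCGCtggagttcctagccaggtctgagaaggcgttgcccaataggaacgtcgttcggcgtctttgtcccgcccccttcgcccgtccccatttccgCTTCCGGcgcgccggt
The Cox6a1 window held 2 matches to the core letters of the NRF1 site (GCGCA and GCGC with any base between them) and, on the reverse strand, 1 to an ETS site (CCGGAAG). The Cox8b and Cox8a windows each held 1 match to E-box letters (CANCTG), and the Cox7a1 and Cox7a2 windows held none of the 5 motifs. CpG dinucleotides were scarce upstream of the muscle isoforms that had a window, with 4 for Cox7a1 and 1 for Cox8b, against 12 for Cox7a2, 11 for Cox8a and 23 for Cox6a1. The median over the members was 12 and over all protein-coding genes 8.

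NRF1 and NRF2, an ETS family factor, are known regulators of respiratory chain genes. Promoter windows were matched for 69 of the 86 members (74 windows), and the 250 bases before the start were searched on both strands. The NRF1 core was found in 18.9% of the members' windows, against 5.18% of 21263 windows of protein-coding genes. ETS letters were found in 16.2% of the members' windows, against 8.98% of all. The letters AANATGGC of the YY1 site stood in 8.11% of the members' windows, against 3.65% of all. E-box letters stood in 36.5% of the members' windows and 42% of all, and the letters of the MEF2 site (CTA and TAG with any 4 bases between them) in 1.35% and 3.06%. In the 16 windows of members called higher against Mkx flox/+ (given below), NRF1 core, ETS and MEF2 letters each stood in 6.25%. YY1 letters stood in 12.5% of these windows and E-box letters in 18.8%. A link between motifs and fold changes was not tested. Matches of one motif may overlap those of another, and a match is a run of letters, not a measured binding site.

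The members' own levels set the scale. On a scale per transcript length (TPM, which also scales to library size), the highest mean level over all 10 libraries in complex V was that of Atp5g3, which encodes the proton-carrying subunit c, at 1816 TPM, with 922 TPM in the lowest library and 4316 TPM in the highest. In complex IV the highest mean level was that of Ndufa4 at 1420 TPM, followed by Cox4i1 at 1261 TPM. Uqcrh, the hinge protein of complex III, averaged 873 TPM, and the accessory subunit Ndufb9 led complex I at 615 TPM, with 19.5% of its exon length shared with another gene model on the same strand. Sdhb, the iron-sulfur subunit of complex II, averaged 463 TPM. The lowest tested members of complexes I and II were Ndufc1 at 49.4 TPM and Sdhc at 56.8 TPM. In complex III the lowest was Cyc1, the heme subunit, at 134 TPM. Complexes IV and V had Cox6b2 at 3.99 TPM and Atp5s at 10.9 TPM as their lowest tested members. Cycs averaged 21.1 TPM and Cox4i2 of complex IV 41.5 TPM. The subunit c genes, which encode the same mature protein, lay far apart, with Atp5g3 at 1816 TPM, Atp5g2 at 118 TPM and Atp5g1 at 57.1 TPM. Cox7b2 and Cox8c, isoforms known from testis, had 0 and 4 reads in all libraries together and did not pass the filter on low counts, so 84 members were tested among 16017 genes.

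Libraries held from 8680934 to 22656417 counts. Mkx was checked first: it averaged 29.7 ± 3.19 CPM (counts scaled to library size, not to gene length) in Mkx-CreER/flox, 92.9 ± 1.30 CPM in Mkx-CreER/+ and 159.7 ± 29.6 CPM in Mkx flox/+ (SD, n = 3, 3 and 4), a log2 fold change of -2.04 against both controls (edgeR quasi-likelihood test, adjusted p = 1.486e-04). The 8 tendon markers were all detected in every library, and brown adipocyte marker Ucp1 was at 0 in every library. The library Mkx-CreER/flox 1 stood apart from all others in the members, in mitochondrially encoded genes and in the relation of counts to GC content, as given below. It was also highest in muscle markers, but their mean log2 CPM of 10.45 was close to the 10.1 of Mkx-CreER/+ 2. Counts and medians of the members and the members called against both controls are therefore given with and without Mkx-CreER/flox 1.

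The members together took 1.967%, 1.357% and 1.024% of all counts in the Mkx-CreER/flox libraries 1, 4 and 5. In Mkx-CreER/+ 1, 2 and 4 they took 1.298%, 1.172% and 1.045%, and in Mkx flox/+ 1 to 4 they took 0.8566%, 0.7096%, 0.9018% and 0.9806%. The libraries 1 and 4 of Mkx-CreER/flox lay above every control, while library 5 lay below all 3 Mkx-CreER/+ libraries and above all 4 Mkx flox/+ libraries. Skeletal muscle markers, 22 genes, were summed in the same libraries and stood at 11.75%, 8.523% and 7.592% of counts in Mkx-CreER/flox, 3.135%, 8.123% and 6.306% in Mkx-CreER/+ and 1.655%, 1.936%, 4.915% and 5.184% in Mkx flox/+. Both shares were highest in Mkx-CreER/flox 1, but their orders differed elsewhere: Mkx-CreER/+ 1 had the highest member share of its genotype with the lowest muscle share, and Mkx-CreER/flox 5 had more muscle signal than 2 of the 3 Mkx-CreER/+ libraries with a lower member share. None of the 22 markers was at 0 in any library. Ttn alone held 88459 of their 140134 summed CPM in Mkx-CreER/flox 1 and 9281 of 16688 in Mkx flox/+ 1. The muscle covariate used below is another measure, the mean log2 CPM of the 22 markers. It was 10.45, 9.372 and 9.737 in Mkx-CreER/flox 1, 4 and 5, and 8.675, 10.1 and 8.883 in Mkx-CreER/+ 1, 2 and 4. In Mkx flox/+ it lay between 7.603 and 9.674. Mitochondrially encoded genes took 8.853%, 5.317% and 3.956% of counts in Mkx-CreER/flox, 3.142%, 2.332% and 4.779% in Mkx-CreER/+ and between 1.917% and 2.314% in Mkx flox/+. In whole tissue, more cells of a type and more RNA per cell cannot be told apart, and the part of muscle RNA in the results on the members was not tested beyond the fits with a muscle covariate given below.

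**Figure D1:**
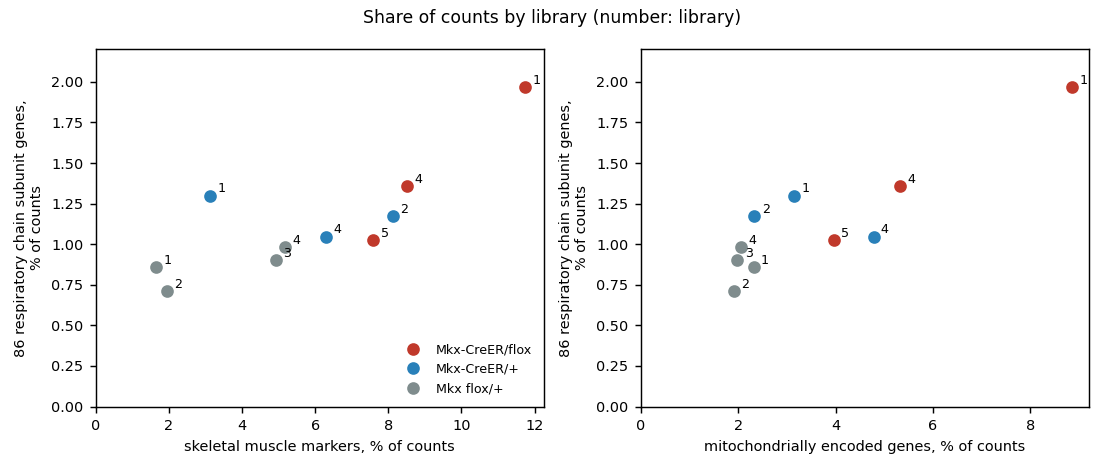
Share of all counts taken by the 86 respiratory chain subunit genes (vertical axes, %) against the share taken by 22 skeletal muscle markers (left) and by mitochondrially encoded genes (right), 1 point per library. Mkx-CreER/flox 1 lies highest on all 3 measures (1.967%, 11.75% and 8.853%), and Mkx flox/+ 1 and 2 have the least muscle signal (1.655% and 1.936%).

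The comparison against both controls together sets Mkx-CreER/flox against the average of Mkx-CreER/+ and Mkx flox/+, not against each of them. In it, 8 of the 84 tested members rose and 0 fell in Mkx-CreER/flox at a Benjamini-Hochberg adjusted p under 0.05 (edgeR). That is 9.52% of the members higher, against 3.03% of all genes tested, and 0 lower, against 1.62% (4.65% of all genes in either direction). The members that rose were Ndufs1, Ndufb5, Cycs, Cox6a2, Cox7a1, Cox8b, Atp5f1 and Atp5j. The log2 fold change was positive in 76 members (90.5%, against 51.5% of all genes), and its median was 0.59, against 0.02 over all genes. Against Mkx flox/+ alone, 19 members rose (22.6%, against 4.37% of all genes) and 1 fell (2.9% of all genes did, and 7.27% were called in either direction). The log2 fold change was positive in 78 members (92.9%, against 50.8% of all genes), with a median of 0.76. Against Mkx-CreER/+ alone, 0 members were called by edgeR (0.00624% of all genes were, and that gene was Mkx). In that comparison 16 members had an unadjusted p under 0.05 (19%, against 10.7% of all genes). DESeq2 called 0 members (0.787% of all genes), and limma voom called 2 lower, Cox6a1 and Cox8a (2.38%, against 2.72% of all genes lower). Fold changes were positive in 71 members (84.5%, against 52.9% of all genes), with a median log2 fold change of 0.42. The count against both controls depended on the tool: DESeq2 called 29 members (34.5%, against 9.11% of all genes), and limma voom called 16 (19%, against 18.8%) with a median of 0.29. Against Mkx flox/+, DESeq2 called 41 members (48.8%, against 11.7%). The comparisons share the Mkx-CreER/flox libraries, and all 8 members called against both controls were also called against Mkx flox/+.

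Most of the rise came with the library Mkx-CreER/flox 1. It was the highest of all 10 for 70 members (83.3%, against 25.4% of all genes). Mkx-CreER/flox 4 exceeded all 7 controls for 34 members (40.5%, against 17.4% of all genes) and Mkx-CreER/flox 5 for 2 (2.38%, against 15.8%). Mkx-CreER/flox 5 lay below the lowest Mkx-CreER/+ library for 38 members (45.2%, against 24.9% of all genes). All 3 Mkx-CreER/flox libraries lay above all 7 controls for 2 members, Ndufc1 and Cox6a2 (2.38%, against 3.81% of all genes), and below all 7 for 0 (3.12% of all genes). The members' median ratio of Mkx-CreER/flox 1 to Mkx-CreER/flox 4 was 1.86, against 1.01 over all genes. Without Mkx-CreER/flox 1 the median log2 fold change against both controls was 0.12 and 0 members were called (1.29% of all genes were), against Mkx-CreER/+ the median was -0.08, and against Mkx flox/+ it was 0.33. The 8 called members then had log2 fold changes against both controls between 0.33 (Atp5j) and 0.80 (Cox6a2), with edgeR adjusted p between 0.145 and 0.351. The count against both controls was also 0 when Mkx-CreER/flox 4, Mkx-CreER/+ 1 or 2, or Mkx flox/+ 1 or 2 was left out alone. Over all genes, 64, 76, 67, 246 and 352 were then called in that order, against 744 with all libraries. The members' count was 1 without Mkx flox/+ 3 (379 over all genes) and 37 (44%, against 6.4% of all genes) without Mkx-CreER/flox 5. Against Mkx flox/+, where 20 members were called in all, the count was 2 without Mkx-CreER/flox 1 (Cox7a1 higher and Ndufa4l2 lower; 2.38%, against 3.83% of all genes). Without Mkx-CreER/flox 5 it was 44 (52.4%, against 9.62%). With the mean log2 CPM of the muscle markers as a covariate and all libraries kept, the median against both controls was 0.28. In that fit 0 members were called (0.131% of all genes were).

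**Figure D2:**
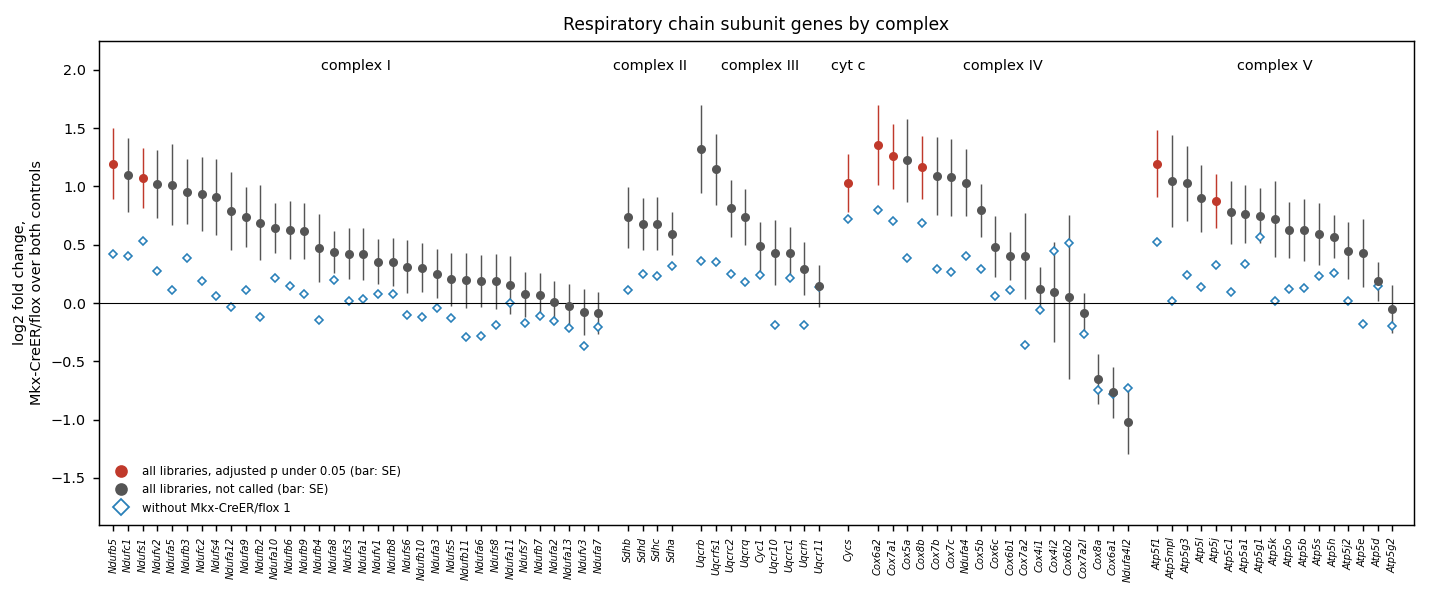
Log2 fold change of Mkx-CreER/flox over both controls for the tested members described here, by complex (filled points, bars are standard errors, red where adjusted p is under 0.05), and the same without Mkx-CreER/flox 1 (open diamonds). Over all 84 tested members the median is 0.59 with all libraries and 0.12 without that library. Cox6a1, Cox8a and Ndufa4l2 lie well below 0 in both.

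In complex I, 2 of 35 members rose against both controls, with a median log2 fold change of 0.42. Ndufs1 (chr1:63143596-63176833; coordinates here are mm10, GENCODE vM21), the iron-sulfur subunit of the electron input arm, had 381, 201 and 128 CPM in Mkx-CreER/flox 1, 4 and 5, 144, 107 and 142 CPM in Mkx-CreER/+ 1, 2 and 4, and 98.2, 83.5, 77.2 and 127 CPM in Mkx flox/+ 1 to 4. Mkx-CreER/flox 1 and 4 lay above every control, and Mkx-CreER/flox 5 lay within the range of Mkx-CreER/+ and just above the highest Mkx flox/+ library. Its log2 fold change was 1.07 ± 0.26 (SE), with an adjusted p of 0.0349 (edgeR). Ndufb5 (chr3:32736990-32751566), an accessory subunit of the membrane arm, had 374, 140 and 104 CPM in Mkx-CreER/flox, 106, 91.9 and 108 CPM in Mkx-CreER/+ and 67.9, 60.4, 89.6 and 98.4 CPM in Mkx flox/+. Mkx-CreER/flox 1 lay far above the rest, Mkx-CreER/flox 4 above every control, and Mkx-CreER/flox 5 lay inside the Mkx-CreER/+ range. Its log2 fold change was 1.20 ± 0.31 (edgeR adjusted p = 0.0457), and 12.3% of its exon length overlaps Mrpl47 on the other strand, whose reads cannot be told apart without a strand setting.

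The other core subunits of complex I described here did not pass against both controls. Their log2 fold changes were 1.02 for Ndufv2, 0.42 for Ndufs3, 0.36 for Ndufv1, 0.19 for Ndufs8 and 0.07 for Ndufs7. These genes all encode parts of the same hydrophilic arm, and their fold changes spanned the range from near 0 to that of Ndufs1. Against Mkx flox/+, Ndufv2 rose by 1.25 ± 0.33 on the log2 scale (edgeR adjusted p = 0.0384), as did the accessory subunits Ndufb3 (1.20, adjusted p = 0.0354) and Ndufa10 (0.82, adjusted p = 0.0498). Lowest in complex I against both controls were Ndufa7 at -0.08 and Ndufv3 at -0.07. Without Mkx-CreER/flox 1 the median of complex I was 0.02.

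Complex II is the only complex encoded wholly in the nucleus. Its 4 genes had similar log2 fold changes against both controls, 0.60 for the flavoprotein Sdha, 0.73 for the iron-sulfur subunit Sdhb, and 0.68 for each of the membrane anchors Sdhc and Sdhd, and 0 of them passed. Sdha had 706, 514 and 380 CPM in Mkx-CreER/flox, 440, 408 and 414 CPM in Mkx-CreER/+ and 299, 284, 267 and 334 CPM in Mkx flox/+. All 3 Mkx-CreER/flox libraries were above all 4 Mkx flox/+ libraries, and library 5 was below all 3 of Mkx-CreER/+. Without Mkx-CreER/flox 1 the median of the complex against both controls was 0.24, against 0.68 with it. Against Mkx flox/+, Sdha rose by 0.85 ± 0.21 on the log2 scale (edgeR adjusted p = 0.0248).

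In complex III, 0 of 9 members passed against both controls (median 0.49, and 0.21 without Mkx-CreER/flox 1) and 3 rose against Mkx flox/+. The Rieske iron-sulfur protein Uqcrfs1 had 367, 128 and 105 CPM in Mkx-CreER/flox, 121, 97.3 and 97.6 CPM in Mkx-CreER/+ and 65.3, 68.0, 77.1 and 98.5 CPM in Mkx flox/+. Its log2 fold change was 1.15 against both controls, just outside the threshold (edgeR adjusted p = 0.0513), and 1.37 ± 0.35 against Mkx flox/+ (adjusted p = 0.0342). The core protein Uqcrc2 (1.02, adjusted p = 0.0423) and Uqcrq (0.95, adjusted p = 0.0470) also rose against Mkx flox/+. Uqcrb had the highest log2 fold change of the complex against both controls, 1.32 ± 0.38, which did not pass (adjusted p = 0.0686), with 135 CPM in Mkx-CreER/flox 1 and between 17.5 and 44.2 CPM in every other library. Cyc1 was at 0.49, and Uqcrh and Uqcr11 were lowest at 0.30 and 0.14.

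Cytochrome c rose both against both controls together and against Mkx flox/+ alone. Cycs (chr6:50562563-50566538) had 63.1, 44.2 and 30.6 CPM in Mkx-CreER/flox, 27.9, 25.7 and 31.1 CPM in Mkx-CreER/+ and 14.1, 12.4, 16.4 and 28.6 CPM in Mkx flox/+. Only the library Mkx-CreER/+ 4 among the controls overlapped the Mkx-CreER/flox range. The log2 fold change was 1.03 ± 0.25 against both controls (edgeR adjusted p = 0.0336) and 1.36 ± 0.29 against Mkx flox/+ (adjusted p = 0.0144). Without Mkx-CreER/flox 1 it was 0.72 against both controls and did not pass.

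Complex IV split by isoform. All 3 muscle isoforms rose against both controls, while their widely expressed counterparts had log2 fold changes of -0.77 (Cox6a1), 0.40 (Cox7a2) and -0.65 (Cox8a), and 0 of these passed. Over the 18 tested members of the complex the median was 0.45, and 0.28 without Mkx-CreER/flox 1, where the muscle isoforms had a median of 0.70 and none of them passed. Cox7a1 (chr7:30184144-30186078) had 210, 106 and 71.8 CPM in Mkx-CreER/flox, 69.3, 79.4 and 66.5 CPM in Mkx-CreER/+ and 29.6, 32.3, 40.1 and 60.7 CPM in Mkx flox/+. Every Mkx-CreER/flox library exceeded every Mkx flox/+ library, and library 5 lay inside the Mkx-CreER/+ range. The log2 fold change was 1.26 ± 0.28 against both controls (edgeR adjusted p = 0.0289) and 1.67 ± 0.32 against Mkx flox/+ (adjusted p = 0.0121). Against Mkx flox/+, Cox7a1 was called in 10 of 10 fits that each left out a library, with adjusted p of at most 0.0440. With the muscle covariate it was not called, and over all 21 alternative settings its adjusted p lay between 3.82e-05 and 0.138.

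Cox6a2 (chr7:128205435-128206387) had 204, 94.4 and 77.6 CPM in Mkx-CreER/flox, 49.3, 66.4 and 62.8 CPM in Mkx-CreER/+ and 26.7, 22.5, 42.1 and 69.0 CPM in Mkx flox/+. The Mkx-CreER/flox libraries lay above all 7 controls, while the control genotypes overlapped each other. Its log2 fold change was 1.36 ± 0.34 against both controls (edgeR adjusted p = 0.0464) and 1.64 ± 0.40 against Mkx flox/+ (adjusted p = 0.0306). Cox8b (chr7:140898945-140900446) had 273, 146 and 113 CPM in Mkx-CreER/flox, 88.4, 117 and 97.6 CPM in Mkx-CreER/+ and 39.3, 47.8, 71.0 and 91.3 CPM in Mkx flox/+. Mkx-CreER/+ 2 was the only control above the lowest Mkx-CreER/flox library. Its log2 fold change was 1.16 ± 0.27 against both controls (edgeR adjusted p = 0.0328) and 1.51 ± 0.31 against Mkx flox/+ (adjusted p = 0.0150).

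The counterparts had another pattern over the libraries. Cox6a1 (chr5:115345642-115348981) had 102, 101 and 106 CPM in Mkx-CreER/flox, 230, 189 and 106 CPM in Mkx-CreER/+ and 213, 140, 193 and 156 CPM in Mkx flox/+. The Mkx-CreER/flox libraries lay close together at the level of the lowest control, Mkx-CreER/+ 4, and Mkx-CreER/flox 1 was no higher than the others. The log2 fold change of -0.77 ± 0.22 against both controls missed the threshold in edgeR (adjusted p = 0.0589) and passed in DESeq2 (adjusted p = 0.0155). Over all 20 alternative settings its adjusted p lay between 0.00385 and 0.215. Cox8a (chr19:7215153-7217616) had 74.7, 66.9 and 61.6 CPM in Mkx-CreER/flox, 142, 110 and 73.0 CPM in Mkx-CreER/+ and 123, 86.8, 127 and 80.2 CPM in Mkx flox/+. Again Mkx-CreER/+ 4 was the control that overlapped, and the log2 fold change of -0.65 ± 0.21 did not pass (edgeR adjusted p = 0.0950). Cox7a2 (chr9:79755361-79759878) differed from these: at 223, 86.7 and 61.6 CPM in Mkx-CreER/flox, 132, 113 and 69.0 CPM in Mkx-CreER/+ and 82.5, 49.2, 112 and 91.7 CPM in Mkx flox/+, its libraries overlapped widely.

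Ratios within a library do not depend on library scaling, and 3 such ratios were compared with a two-sided exact permutation test of 3 against 7 libraries, for which the smallest possible p is 0.00833. The log2 ratio of Cox6a2 to Cox6a1 was 0.997, -0.09 and -0.45 in Mkx-CreER/flox 1, 4 and 5, against -2.22, -1.50 and -0.75 in Mkx-CreER/+ and -2.99, -2.63, -2.19 and -1.18 in Mkx flox/+. No control reached the Mkx-CreER/flox range, and the means differed by 2.07 (exact p = 0.00833, 0.0125 adjusted over the 3 ratios). The log2 ratio of Cox8b to Cox8a was 1.87, 1.13 and 0.88 in Mkx-CreER/flox, against -0.69, 0.09 and 0.42 in Mkx-CreER/+ and -1.64, -0.86, -0.84 and 0.19 in Mkx flox/+. Again no control overlapped, with a difference of 1.77 (exact p = 0.00833, 0.0125 adjusted).

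The third ratio, Cox7a1 to Cox7a2, was -0.09, 0.29 and 0.22 in Mkx-CreER/flox, against -0.93, -0.50 and -0.05 in Mkx-CreER/+ and -1.48, -0.61, -1.47 and -0.60 in Mkx flox/+. Here the library Mkx-CreER/flox 1 was the lowest of its genotype and fell below Mkx-CreER/+ 4. The difference was 0.95 (exact p = 0.0333, 0.0333 adjusted), and it no longer passed when any Mkx-CreER/flox library or Mkx-CreER/+ 1 was left out (exact p between 0.0556 and 0.0833). The Cox6a2 and Cox8b ratios without Mkx-CreER/flox 1 differed by 1.65 and 1.48 (exact p = 0.0278 each, the smallest possible with 2 against 7). Against Mkx-CreER/+ alone the differences were 1.64, 0.64 and 1.35 for the Cox6a2, Cox7a1 and Cox8b ratios, with exact p of 0.1, 0.2 and 0.1, where 3 against 3 cannot give less than 0.1. Muscle markers were also higher in Mkx-CreER/flox than in Mkx flox/+, and their part in the ratios was not tested.

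**Figure D3:**
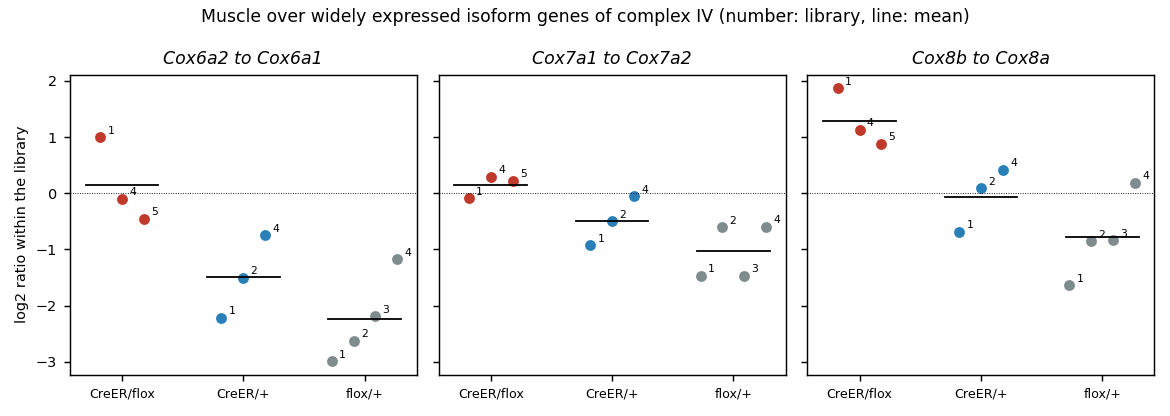
Log2 ratio of the muscle isoform gene to its widely expressed counterpart within each library, for Cox6a2 to Cox6a1, Cox7a1 to Cox7a2 and Cox8b to Cox8a, by genotype (points are numbered libraries, lines are means). Mkx-CreER/flox libraries lie above all 7 controls in the first and last panels, by means of 2.07 and 1.77, and overlap Mkx-CreER/+ 4 in the middle one.

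Among the other complex IV members, Ndufa4 and Ndufa4l2 differed in direction. Ndufa4 had 785, 367 and 243 CPM in Mkx-CreER/flox, 276, 265 and 278 CPM in Mkx-CreER/+ and 176, 121, 211 and 246 CPM in Mkx flox/+, and it rose against Mkx flox/+ by 1.30 ± 0.33 on the log2 scale (edgeR adjusted p = 0.0305). Ndufa4l2 (chr10:127514967-127517154), a relative known to be induced by hypoxia, had 16.9, 29.0 and 53.5 CPM in Mkx-CreER/flox, 49.0, 51.3 and 44.8 CPM in Mkx-CreER/+ and 83.8, 77.4, 88.3 and 124 CPM in Mkx flox/+. Every Mkx-CreER/flox library and every Mkx-CreER/+ library was below every Mkx flox/+ library. Ndufa4l2 fell by 1.49 ± 0.31 against Mkx flox/+ (edgeR adjusted p = 0.0137), the only member to fall in any of the 4 edgeR comparisons, and its log2 fold change against both controls was -1.02 (adjusted p = 0.0536). Without Mkx-CreER/flox 1 it still fell by 1.20 against Mkx flox/+ (adjusted p = 0.0203), and over all 21 alternative settings the adjusted p lay between 0.000108 and 0.0595, the highest being with the muscle covariate.

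Cox5b, a nuclear subunit on the matrix side, rose against Mkx flox/+ by 1.11 ± 0.26 on the log2 scale (edgeR adjusted p = 0.0211), while Cox5a was at 1.22 against both controls without passing (adjusted p = 0.0745). Cox4i1, the widely expressed form of subunit IV, was at 0.12 ± 0.19 (SE) against both controls, with mean levels of 451 ± 89.9 CPM in Mkx-CreER/flox, 445 ± 81.4 CPM in Mkx-CreER/+ and 386 ± 63.7 CPM in Mkx flox/+. Its oxygen-responsive isoform Cox4i2 was at 0.09 with a standard error of 0.43. Cox7b and Cox7c were at 1.09 and 1.08, Cox6c at 0.48 and Cox6b1 at 0.41, and none of these 4 passed. Cox7a2l, which is known to link complexes III and IV in supercomplexes, was at -0.09, and the testis isoform Cox6b2 had at most 1.42 CPM in any library.

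In complex V, 2 of 17 members rose against both controls, with a median log2 fold change of 0.72 with all libraries and 0.14 without Mkx-CreER/flox 1. Both encode parts of the peripheral stalk that holds the catalytic head still. Atp5f1 (chr3:105942698-105960099), subunit b, had 490, 220 and 138 CPM in Mkx-CreER/flox, 156, 114 and 169 CPM in Mkx-CreER/+ and 125, 91.7, 87.6 and 110 CPM in Mkx flox/+. Atp5j (chr16:84827866-84835625), coupling factor F6, had 472, 234 and 173 CPM in Mkx-CreER/flox, 191, 172 and 186 CPM in Mkx-CreER/+ and 155, 121, 129 and 152 CPM in Mkx flox/+. For both genes Mkx-CreER/flox 5 lay within the Mkx-CreER/+ range and above all Mkx flox/+ libraries. The log2 fold changes were 1.20 ± 0.29 for Atp5f1 (edgeR adjusted p = 0.0354) and 0.87 ± 0.23 for Atp5j (adjusted p = 0.0466). Atp5j overlaps Gabpa on the other strand over 12.7% of its exon length.

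The catalytic head of complex V did not pass in either comparison. Against both controls the log2 fold changes were 0.76 for the alpha subunit Atp5a1, 0.63 for the beta subunit Atp5b, 0.78 for gamma (Atp5c1), 0.19 for delta (Atp5d) and 0.43 for epsilon (Atp5e). The subunit c genes parted. Against Mkx flox/+, Atp5g3 rose by 1.31 ± 0.36 (edgeR adjusted p = 0.0446) and Atp5g1 by 0.99 ± 0.27 (adjusted p = 0.0387), while Atp5g2 was at -0.05 against both controls, the lowest of the complex. Atp5mpl, which encodes a small membrane subunit, was at 1.05 against both controls and did not pass.

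**Figure D4:**
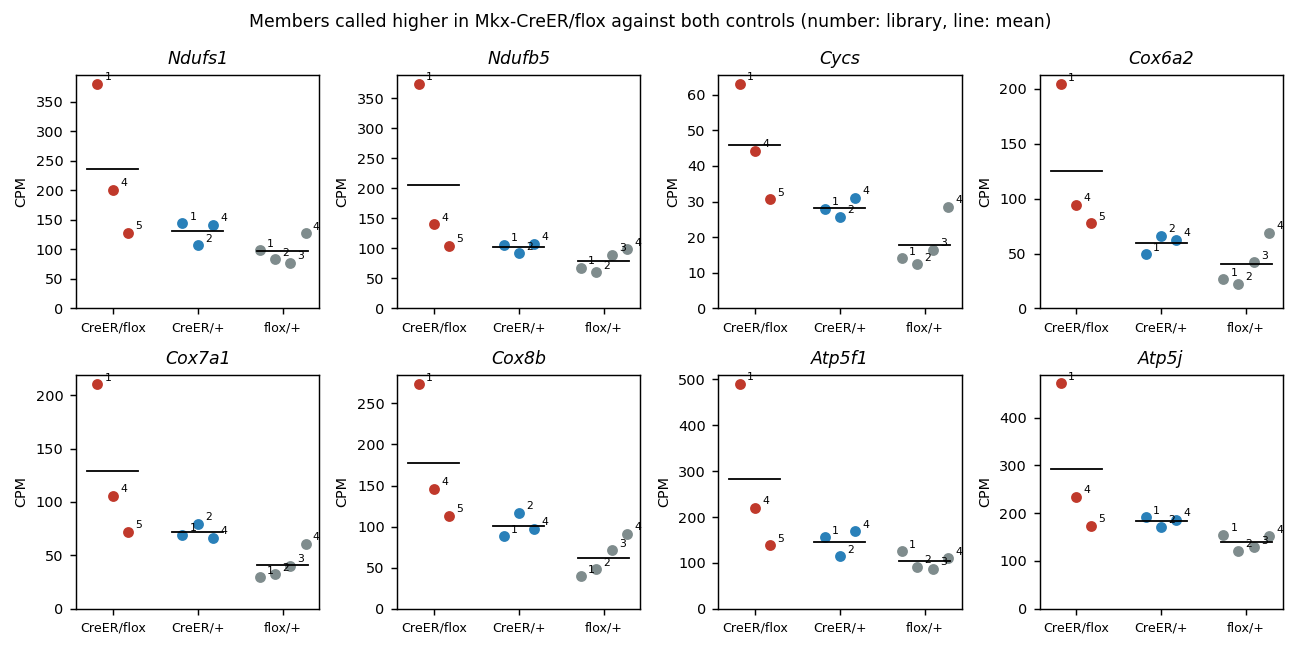
CPM of the 8 members called higher in Mkx-CreER/flox against both controls, by genotype (points are numbered libraries, lines are means). Mkx-CreER/flox 1 is the highest point in every panel, for example 381 CPM for Ndufs1 and 204 CPM for Cox6a2, and Mkx-CreER/flox 5 is the lowest of its genotype.

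Between the controls, Mkx-CreER/+ against Mkx flox/+, 0 members and 0% of all genes were called by edgeR. At an unadjusted p under 0.05 there were 7 members (8.33%) among 798 genes (4.98% of all), and DESeq2 and limma voom called 0 members (0.231% and 0% of all genes). The log2 fold change was positive in 80 of 84 members (95.2%, against 50.3% of all genes), with a median of 0.33. The medians by complex were 0.29 in complex I, 0.39 in complex II, 0.39 in complex III, 0.47 in complex IV and 0.40 in complex V. The muscle isoforms lay between 0.57 (Cox6a2) and 0.82 (Cox7a1) with a median of 0.69, and the lowest member, Ndufa4l2, was at -0.95. Muscle markers had a median of 0.58 in the same comparison.

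The size of a member's fold change went with the GC content of its transcripts. Over the 84 members, the log2 fold change against both controls correlated with GC content at Pearson r = -0.66 and Spearman rho = -0.66, against -0.21 and -0.29 over 14011 protein-coding genes. Genes are not independent replicates and share the same libraries, so these are descriptions. For Mkx-CreER/flox 1 alone, minus the mean of the 7 controls, r was -0.64 over the members and -0.40 over all genes, and for the mean of libraries 4 and 5 it was -0.40 and -0.01. The 42 members at or under the median GC content of 52.3% had a median log2 fold change of 0.80, and the 42 members over it had 0.33. Over 16007 genes in 20 bins, the lowest GC bin exceeded the highest by 1.18 in Mkx-CreER/flox 1 on the log2 scale and by between -0.48 and 0.19 in the other 9 libraries. With a GC trend removed from each library, the members' median against both controls was 0.64, with 5 called higher (Ndufs1, Atp5f1, Cox7a1, Cox8b and Atp5j) and Ndufa4l2 called lower. Over all 16017 genes tested, 491 were called higher and 277 lower in that fit.

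**Figure D5:**
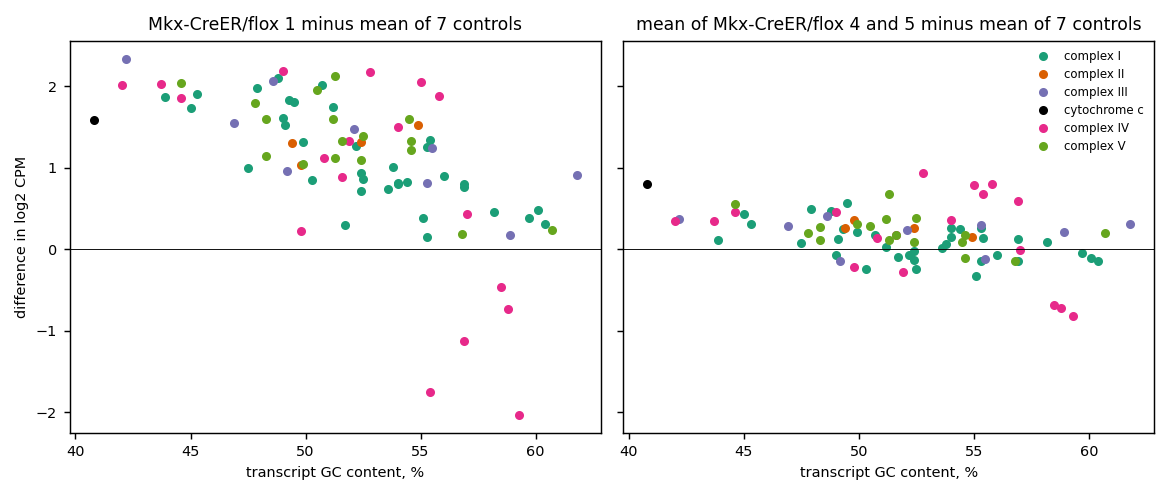
Difference in log2 CPM from the mean of the 7 controls against transcript GC content (%) for the 84 tested members, coloured by complex, for Mkx-CreER/flox 1 (left) and the mean of Mkx-CreER/flox 4 and 5 (right). The correlation is stronger on the left (r = -0.64) than on the right (r = -0.40).

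The mitochondrially encoded subunits, partners of these proteins in complexes I, III, IV and V, were tested for 9 of 13 genes, and 6 of them rose against both controls with a median log2 fold change of 1.22. The Nd2 subunit of complex I (mt-Nd2) was at 1.50 ± 0.32 (edgeR adjusted p = 0.0241) and the catalytic subunit of complex IV (mt-Co1) at 1.37 ± 0.31 (adjusted p = 0.0289). Of 15 complex I assembly factors 1 rose, Ndufaf4 (1.20, adjusted p = 0.0326), and of 28 assembly factors of the other complexes 1 rose, Atpaf1 (0.84, adjusted p = 0.0492), with medians of 0.42 and 0.28. Of 18 genes of the citric acid cycle and pyruvate entry 3 rose, among them Dlat of pyruvate dehydrogenase (1.03, edgeR adjusted p = 0.0304), and 18 were positive. Of 16 fatty acid oxidation genes 1 rose, Hadhb of the trifunctional protein (0.97, adjusted p = 0.0224). None of these lists had a member that fell against both controls. Over all genes tested, 3.03% rose and 1.62% fell in that comparison, so a single call in a list this short is not a result about the list. Against Mkx-CreER/+ alone, 0 genes of these lists were called by edgeR (0.00624% of all genes were). Values of these lists without Mkx-CreER/flox 1 are not given here.

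Among 13 regulators of mitochondrial genes 3 rose, including the coactivator Ppargc1b at 1.12 ± 0.26 (edgeR adjusted p = 0.0292) and the fatty acid receptor Ppara at 1.28 ± 0.31 (adjusted p = 0.0350), with a list median of 0.32. Of 16 import and cristae genes 3 rose, among them the fusion protein Mfn2 (0.80, adjusted p = 0.0175) and the chaperone Hspa9 (0.80, adjusted p = 0.0338). Of 9 carriers and outer membrane channels 3 rose, among them the channel Vdac1 (1.10, adjusted p = 0.0228) and Slc25a4, the ADP/ATP carrier of muscle (1.19, adjusted p = 0.0268). These calls are against both controls, where 3.03% of all genes tested rose, and 0 genes of these lists were called against Mkx-CreER/+ alone. Their values without Mkx-CreER/flox 1 are not given either. Skeletal muscle markers rose in 4 of 22 genes, with Mb, which encodes the oxygen store myoglobin, at 1.94 ± 0.37 (adjusted p = 0.0224) and Tcap of the sarcomere at 1.27 ± 0.26 (adjusted p = 0.0227). Mb had 1803, 1163 and 649 CPM in Mkx-CreER/flox, 455, 314 and 655 CPM in Mkx-CreER/+ and 182, 212, 89.5 and 353 CPM in Mkx flox/+, so Mkx-CreER/flox 1 was highest for Mb too. The markers did not share an order of libraries: 11 of the 22 were highest in Mkx-CreER/flox 1 and 9 in the control Mkx-CreER/+ 2. Myh7 and Myh4, myosins of slow and fast fibres, are named here after their values were seen. Myh7 had 3361, 2878 and 1636 CPM in Mkx-CreER/flox, 384, 523 and 1540 CPM in Mkx-CreER/+ and 303, 372, 104 and 1175 CPM in Mkx flox/+. Myh4 had 1617, 70.6 and 3305 CPM in Mkx-CreER/flox, 266, 11527 and 12.1 CPM in Mkx-CreER/+ and 94.5, 484, 9427 and 3181 CPM in Mkx flox/+.

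Markers of other cell types moved in both directions in the same libraries. Tendon markers fell in 5 of 8 genes against both controls, among them the deleted Mkx itself and Kera at -2.01 (edgeR adjusted p = 0.00467). The fall of Mkx was set by the design. The summed level of the tendon markers lay between 21397 and 28052 CPM in Mkx-CreER/flox, 36173 and 48810 CPM in Mkx-CreER/+ and 59032 and 123826 CPM in Mkx flox/+. Macrophage markers fell in 6 of 6 genes, endothelial markers rose in 1 of 3 (Kdr) and Schwann cell markers in 1 of 4 (Cdh19). In this comparison, 3.03% of all genes tested rose and 1.62% fell. Adipocyte and erythroid markers, 5 of each, had median log2 fold changes of -0.40 and -0.64, and no gene of either list passed. The part of these shifts in the members' results was not tested.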

How the data were processed

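RNA of mouse Achilles tendon (10 libraries, 3 genotypes) was sequenced after RamDA-seq library preparation. The authors deposited 1 table of unnormalized counts for each gene identifier. Per the submitters' processing notes, fastp, STAR and build mm10 were used; versions, counting tool, annotation, strand setting and the handling of multi-mapping reads are not given in the sources at hand. Columns of Mkx flox/+ carry the sample numbers of the labels. Those of Mkx-CreER/+ (1, 2 and 4) and Mkx-CreER/flox (1, 4 and 5) do not, and were assigned to their genotype without a sample.

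Symbols, exon overlaps and transcript lengths came from GENCODE vM21, which matched 32235 of 32285 identifiers. Of the members, 10 share at least 10% of exon length with a gene on the other strand and 2 with a gene on the same strand. Reads from processed pseudogene copies of members (11 in vM21, 0 in the table) could add to or be lost from members' counts. Promoter sequences are RefSeq's.

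Counts were analysed with edgeR 4.0.16 in R 4.3.3 (filterByExpr, TMM scaling, 1 robust quasi-likelihood fit of all 10 libraries, adjusted p over all 16017 genes tested). Both controls entered with equal weight. CPM are TMM-scaled; 3 counts correspond to 0.1261 to 0.3596 CPM, a limit that covers counting error only. Isoform ratios are differences of log2 CPM with prior count 2. On simulated data for the comparison with both controls, 53.3% of planted 2-fold and 91.7% of planted 4-fold changes were recovered among 16017 genes. Alternatives were DESeq2 1.42.0, limma voom 3.58.1 with sample quality weights, other scalings and filters, and removal of mitochondrially encoded, muscle and erythroid genes. Others were a muscle covariate (mean log2 CPM of the muscle markers), only the groups compared, and each library left out. The muscle covariate without Mkx-CreER/flox 1 and the removal of a GC trend were added after seeing the data. Named genes are members called in a comparison, the 2 highest and 2 lowest of each complex, isoform sets, core subunits, and at most 2 called genes per other list; 2 genes that this rule names are not reported here. The members and lists were chosen with earlier results of these data known.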

Additional observations from a re-analysis of the deposited data

Results flagged for a closer look

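Among 97 values examined for a single library far from the rest of its group, 2 were flagged, where chance alone flags about 1 in 20. Ndufa10, an accessory subunit of complex I, had 66.3 CPM in Mkx flox/+ 4, against 48.5, 45.5 and 47.2 CPM in the other Mkx flox/+ libraries. The gap to the nearest of them was 0.859 of the whole range, above the critical value of 0.829. Ndufb3, another accessory subunit, had 17.9 CPM in Mkx flox/+ 1, against 12.8, 12.6 and 12.6 CPM in the other Mkx flox/+ libraries, a gap of 0.949 of the range. Both members were called higher in Mkx-CreER/flox against Mkx flox/+. Groups of 3 libraries were not examined in this way, so Mkx-CreER/flox 1 is not among these values.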

How the results depend on the processing

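No result changed sign while called under any alternative. The count of members called against both controls, 8, was 29 with DESeq2 (27 higher, 2 lower, with 9.11% of all genes called). It was 16 with limma voom (13 higher, 3 lower, with a median of 0.29 and 18.8% of all genes called). With the muscle covariate it was 0, both with Mkx-CreER/flox 1 (21 called over all genes) and without it (114). The members' count lay between 0 and 37 when single libraries were left out. It was 0 without Mkx-CreER/flox 1 or 4, Mkx-CreER/+ 1 or 2, or Mkx flox/+ 1 or 2, where between 64 and 352 were called over all genes. It was 1 without Mkx flox/+ 3, and 37 without Mkx-CreER/flox 5. The members' median log2 fold change of 0.59 was 0.024 with the muscle covariate and without Mkx-CreER/flox 1, and lay between 0.12 and 0.79 over the single omissions. None of the 8 members kept its call in every omission (1 to 4 of 10).

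Against Mkx-CreER/+, limma voom called 2 members with a median of 0.061 (734 called over all genes). Leaving out Mkx-CreER/+ 4 gave 1 call (Cox6a1, lower, with 117 called over all genes), so the members' count lay between 0 and 1 over the omissions. The median was -0.11 with the muscle covariate and without Mkx-CreER/flox 1, and lay between -0.081 and 0.61 over the omissions. Against Mkx flox/+, 20 called members became 41 with DESeq2, 10 with only the groups compared, 0 with the muscle covariate (median 0.40), and 1 with that covariate and without Mkx-CreER/flox 1 (median 0.17). Over all genes, 1165 calls became 1866, 901, 121 and 263 in the same order. Over the omissions the members' count lay between 2 and 44 and their median between 0.33 and 0.96. That count was 2 without Mkx-CreER/flox 1, 4 without Mkx flox/+ 1, 2 or 3, 13 without Mkx-CreER/flox 4 or Mkx-CreER/+ 1 or 4, and 44 without Mkx-CreER/flox 5. Over all genes the same omissions gave 632, then 455, 640 and 546, then 518, 954 and 1204, and 1585 calls.

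The isoform ratios differed from Mkx-CreER/+ alone by 1.64 (Cox6a2), 0.64 (Cox7a1) and 1.35 (Cox8b), and from Mkx flox/+ alone by 2.40 (Cox6a2) and 2.08 (Cox8b), each with an exact p of 0.0571, and by 1.18 (Cox7a1) with an exact p of 0.0286, the smallest possible. Over the omissions the Cox7a1 ratio lay between 0.83 and 1.07. The cause of these changes was not tested. Comparing only the groups compared is not an alternative for the contrast with both controls, which uses all groups. No paired analysis was possible because the columns of Mkx-CreER/+ and Mkx-CreER/flox carry other numbers than their samples do.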
